A study of Homo sapiens with 6 samples.

Results

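The tumour necrosis factor (TNF) superfamily, its receptors and the TRAF adaptors were examined in T24 bladder cancer cells with lowered MTHFD2. Members were chosen by symbol: all rows beginning TNFRSF or TNFSF, TRAF1 to TRAF7, and TNF, LTA, LTB, LTBR, CD27, CD40, CD70, FAS, FASLG, EDA and EDAR, without antisense RNAs and pseudogenes. This gave 51 of the 54261 genes in the count table: 18 ligands, 7 receptors with a death domain, 4 decoy receptors, 15 receptors that signal through TRAF proteins, and 7 TRAFs. T24 is an established line from a human bladder carcinoma. The knockdown group was 3 libraries of these cells infected with a lentivirus carrying the hairpin MTHFD2-shRNA2. The control group was 3 libraries of T24 cells infected with the same vector type labelled NC. Both vectors carried ZsGreen and a puromycin marker, and both lines were selected with puromycin and grown in high-glucose medium with serum. A single hairpin, cell line and selected line per group therefore stand behind each value, and the labels do not say whether replicates were separate cultures, so p-values measure only the spread between these samples.

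TNF superfamily ligands are made mostly as trimeric membrane proteins that proteases can release, and they act on receptors of neighbouring cells or of the same cell. Receptors with a death domain recruit FADD or TRADD and can start caspase-driven cell death, decoy receptors bind ligand without passing on a full signal, and most of the others bind TRAF proteins directly. TRAFs are adaptors, most of them ubiquitin ligases, that connect the receptors to NF-kB and to the JNK and p38 kinases.

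The libraries held 17801990 to 19978392 counts. Levels are given as CPM, the counts of a gene relative to the scaled size of its library. A gene at 0 may be as high as 3 counts, or 0.149 to 0.171 CPM, when counting error alone is considered. MTHFD2, the hairpin's target and a mitochondrial folate enzyme, averaged 32.4 ± 5.12 CPM in knockdown and 185 ± 3.18 CPM in control libraries (SD, n = 3 each; log2 fold change -2.51 ± 0.13, SE, adjusted p = 1.8e-06 by edgeR). The epithelial keratins KRT8 and KRT18 were abundant in every library and fell, KRT8 to 343 CPM in knockdown against 825 CPM in control libraries, while the epithelial markers KRT19, EPCAM and CDH1 averaged at most 0.408 CPM in either group. Of the other epithelial markers, KRT7 was at 164 CPM in knockdown and 210 CPM in control libraries and did not pass (adjusted p = 0.104), UPK1A rose to 1.38 CPM in knockdown against 0.412 CPM in control libraries (adjusted p = 0.0141), and UPK2 was at 0.0689 and 0.195 CPM. The 10 leukocyte markers summed to 1.64 to 3.33 CPM in knockdown and 2.55 to 2.74 CPM in control libraries, with CD3D and NKG7 at 0 throughout. The 8 fibroblast markers, of which 6 were tested and 5 rose, summed to 44.6, 12 and 38.5 CPM in knockdown replicates 1 to 3, against 7.18 to 8.99 CPM in control libraries. In bulk RNA, fewer cells of a type and less RNA per cell cannot be told apart.

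Of the 51 members, 24 had enough counts to be tested, and 7 of these passed: TNFSF15 and TNFRSF11A rose, and TRAF1, TNFRSF12A, TNFSF9, TRAF4 and CD70 fell. Changed members thus made up 29.2% of those tested, against 17.3% of all 13896 tested genes (edgeR quasi-likelihood test, adjusted p under 0.05). The split was 2 higher and 5 lower, where 9.71% of all tested genes were higher and 7.58% lower. Members that passed the count filter are not the whole family, and no test of the family as a list was made. The median log2 fold change was -0.17 over the tested members and 0.01 over all tested genes. In 16 of the 24, or 66.7%, the knockdown libraries lay wholly to one side of the controls, 6 above and 10 below, where 39.1% of all tested genes did so. Only TNFSF15, TRAF1 and TNFRSF12A kept their call in each alternative fit, the stricter threshold of 0.01 included. The number of members called differed between fits, and is given here with the share of all genes called in the same fit. It was 3 without control replicate 1 (7.03% of all genes), 4 without control replicate 2 (11.8%) and 3 without control replicate 3 (6.92%). It was 11 without knockdown replicate 1 (18.4%), 4 without knockdown replicate 2 (10.4%) and 8 without knockdown replicate 3 (18.6%). The fit without knockdown replicate 1 called 44% of its tested members, against 29.2% with all libraries. For all genes these shares were 18.4% and 17.3%. A further fit set the library lowest in fibroblast markers, knockdown replicate 2, alone against the controls. Its spread comes from the controls only, so its log2 fold changes alone are given below.

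**Figure D1:**
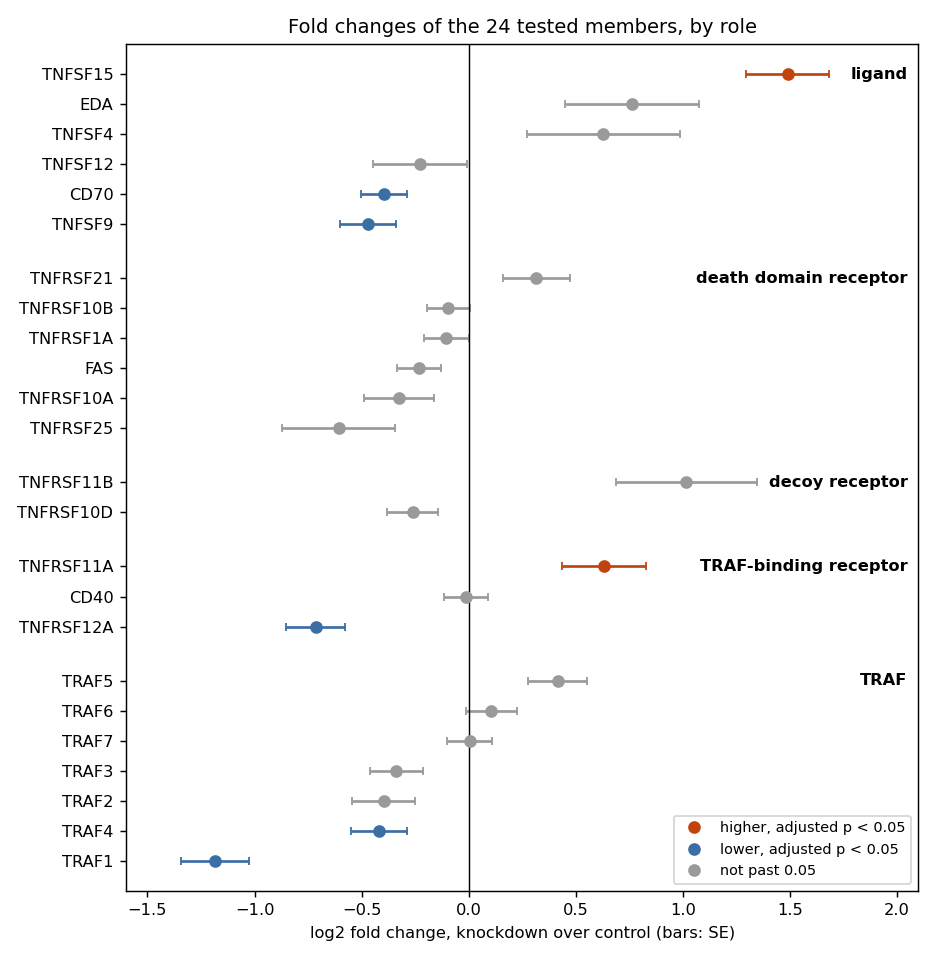
Log2 fold change of each tested member (x axis, knockdown over control; bars, SE) with the genes ordered by role on the y axis and coloured by call. TNFSF15 at 1.49 and TRAF1 at -1.19 are the extremes, and none of the 6 death domain receptors passed.

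Among the ligands, 6 of 18 were tested, of which 1 rose and 2 fell. TNFSF15, also called TL1A, is a ligand that costimulates T cells through TNFRSF25 and restrains endothelial growth (GRCh38 chromosome 9, 114784635 to 114806126, minus strand). TNFSF15 was at 9.05, 14.4 and 11.4 CPM in knockdown replicates 1 to 3 and at 3.70, 4.47 and 4.20 CPM in control replicates 1 to 3. Each knockdown library was above each control, and knockdown replicate 2 was the highest. The rise was 2.81-fold, or 1.49 ± 0.19 on the log2 scale (SE, adjusted p = 0.00079), and 1.79 on that scale with knockdown replicate 2 alone.

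CD70 and TNFSF9 lie near each other on chromosome 19 and encode T cell costimulators, the ligands of CD27 and of TNFRSF9 (4-1BB). CD70 (6583183 to 6604103, minus strand) was at 93.8, 80.6 and 93.9 CPM in the knockdown libraries and at 113, 112 and 128 CPM in the controls. It fell by 0.40 ± 0.11 on the log2 scale (adjusted p = 0.0265). TNFSF9 (6530999 to 6535928, plus strand) was at 33.0, 26.5 and 32.9 CPM in the knockdown libraries and at 42.0, 38 and 47.9 CPM in the controls, a change of -0.47 ± 0.13 (adjusted p = 0.029). For both ligands the groups did not overlap, and both calls were lost in several fits with 1 library fewer, in which fewer of all genes were called too. CD70 lost its call without control replicate 1, 2 or 3 or knockdown replicate 2 (adjusted p = 0.0762, 0.0517, 0.115 and 0.0786), with log2 fold changes of -0.43, -0.44, -0.34 and -0.33. TNFSF9 lost it without control replicate 1 or 3 or knockdown replicate 2 (adjusted p = 0.0827, 0.127 and 0.0825), with log2 fold changes of -0.49, -0.38 and -0.37.

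The other tested ligands did not pass. EDA, the ectodysplasin of skin appendage development, was at 1.79, 3.83 and 3.11 CPM in knockdown libraries against 1.88, 1.98 and 1.27 CPM in controls, with overlapping groups (0.76 ± 0.31, adjusted p = 0.111). It passed without knockdown replicate 1 (1.02 ± 0.27, adjusted p = 0.0353), but in none of the other fits that left out 1 library (adjusted p up to 0.354). The log2 fold change of EDA was 1.15 with knockdown replicate 2 alone. TNFSF4, the OX40 ligand, held 16, 27 and 16 counts against 12 in each control (0.63 ± 0.36, adjusted p = 0.235). Its groups did not overlap. TNFSF12, the TWEAK cytokine, was at 10.8, 11.1 and 19.4 CPM against 14.0, 14.6 and 19.6 CPM (-0.23 ± 0.22, adjusted p = 0.496). Replicate 3 was the highest of each group, and without knockdown replicate 3 the gene passed at -0.56 ± 0.17 (adjusted p = 0.0459).

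The remaining 12 ligands were near or at the floor. TNF, LTA, LTB, TNFSF11 (RANKL) and the TNFSF12-TNFSF13 readthrough had 0 counts in all 6 libraries. TNFSF10 (TRAIL) held 3, 5 and 4 counts in knockdown and 4, 3 and 3 in control libraries. TNFSF13B (BAFF) held 6, 6 and 6 against 1, 4 and 5, and TNFSF18 held 10, 6 and 5 against 9, 8 and 8. TNFSF8, TNFSF13, TNFSF14 and FASLG held at most 4 counts in any library.

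The promoters of called members were read from RefSeq on GRCh38.p14, each window holding 250 bases before and 50 bases from an annotated start, so that base 251 is the start. RefSeq windows matched 35 of the 51 members and 5 of the 7 called ones; CD70 and TNFRSF12A had no match. Windows were searched on both strands for the AP-1 motif TGANTCA, the C/EBP-ATF element TGATGNAA, the TATA motif TATAAA and the kappaB consensus. TNFSF15 and TRAF1 are shown because they changed most in either direction among called members, and TNFSF9 because a match lies close to its start. Capitals mark a match, and a match is a description of letters and not a bound site. The AP-1 motif occurred in 7.72%, the C/EBP-ATF element in 3.62%, TATAAA in 11.6% and the kappaB consensus in 5.9% of all 34943 windows. The TNFSF15 window (chr9:114792481-114792780, minus strand) surrounds a start that lies 13596 bases inside the gene as GENCODE draws it, and its last 40 bases were in no GENCODE 29 transcript of the gene. The window has an AP-1 match at bases 131 to 137:
TNFSF15: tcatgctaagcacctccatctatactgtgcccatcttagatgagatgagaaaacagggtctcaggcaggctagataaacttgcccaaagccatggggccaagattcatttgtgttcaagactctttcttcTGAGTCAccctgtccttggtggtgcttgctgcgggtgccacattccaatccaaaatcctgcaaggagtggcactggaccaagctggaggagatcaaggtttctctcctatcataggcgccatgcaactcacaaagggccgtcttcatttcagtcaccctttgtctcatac
The TNFSF9 window (chr19:6530776-6531075, plus strand) has a TATA match at bases 221 to 226:
TNFSF9: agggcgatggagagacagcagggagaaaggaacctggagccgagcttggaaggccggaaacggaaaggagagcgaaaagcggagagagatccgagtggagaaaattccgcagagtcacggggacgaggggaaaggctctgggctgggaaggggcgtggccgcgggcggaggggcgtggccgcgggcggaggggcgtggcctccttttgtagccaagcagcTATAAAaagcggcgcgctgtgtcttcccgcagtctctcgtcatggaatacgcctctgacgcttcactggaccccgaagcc
None of the 7 windows, from 5 called members, held the kappaB consensus. At a background of 5.9%, so few windows cannot show a lack of it.

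Of the receptors with a death domain, 0 of the 6 tested passed by edgeR and 0 by DESeq2, with log2 fold changes between -0.61 and 0.32. At an unadjusted p under 0.05 edgeR counted FAS and TNFRSF25. TNFRSF1A, the main TNF receptor of most cells, was at 84.6, 94.4 and 97.0 CPM in knockdown and 99.3, 92.1 and 105 CPM in control libraries (-0.10 ± 0.10, adjusted p = 0.506). TNFRSF10B, the TRAIL receptor DR5, was at 126, 122 and 106 CPM against 129, 127 and 123 CPM (-0.10 ± 0.10, adjusted p = 0.54). Both are well covered, and in both the groups overlapped. FAS was at 40.3, 36.8 and 38.1 CPM in knockdown and 47.3, 43.1 and 45.1 CPM in control libraries. The FAS groups did not overlap, but the difference of -0.23 ± 0.10 did not pass (adjusted p = 0.137), nor in any alternative fit.

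TNFRSF10A, the other TRAIL death receptor DR4, was at 23.8, 18.6 and 14.5 CPM against 24.1, 25.4 and 21.8 CPM, with overlap through knockdown replicate 1 (-0.33 ± 0.16, adjusted p = 0.184). TNFRSF25, the receptor of TNFSF15, held 53, 30 and 32 counts in knockdown and 54, 62 and 50 in control libraries (-0.61 ± 0.26, adjusted p = 0.129). Without knockdown replicate 1 both passed, TNFRSF10A at -0.52 ± 0.15 (adjusted p = 0.0412) and TNFRSF25 at -0.89 ± 0.25 (adjusted p = 0.0424). With knockdown replicate 2 alone the log2 fold change of TNFRSF25 was -0.99. TNFRSF21, the receptor DR6, was at 6.76, 6.75 and 7.61 CPM in knockdown and 5.81, 5.41 and 5.74 CPM in control libraries, apart but not past the threshold (0.32 ± 0.16, adjusted p = 0.18). EDAR, untested, held a single count in all 6 libraries.

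Among the decoys, TNFRSF11B stood just outside the threshold. TNFRSF11B encodes osteoprotegerin, a secreted receptor that binds RANKL and TRAIL. It held 59, 30 and 46 counts in knockdown and 25, 23 and 15 in control libraries, so that each knockdown library was above each control after scaling. The difference was 1.02 ± 0.33 on the log2 scale (adjusted p = 0.0532). The excess lay in knockdown replicates 1 and 3, the libraries with the most fibroblast marker reads. Without knockdown replicate 2 the difference was 1.24 ± 0.32 (adjusted p = 0.0213), and with knockdown replicate 2 alone it was 0.40. The part of fibroblast markers in this was not tested. With all libraries and no filter on low counts it passed (adjusted p = 0.0207), as with the stricter filter (adjusted p = 0.048). TNFRSF11B did not pass in DESeq2 (adjusted p = 0.0759) or under RLE scaling (adjusted p = 0.0538). Nor did it in the other fits that left out 1 library (adjusted p up to 0.197). TNFRSF10D, a TRAIL decoy on the membrane, was at 18.2, 16.6 and 15.6 CPM against 19.6, 20.3 and 20.6 CPM (-0.26 ± 0.12, adjusted p = 0.146). TNFRSF10C and TNFRSF6B held at most 3 counts in a library.

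Of the 15 TRAF-binding receptors, 3 were tested, of which 1 rose and 1 fell. TNFRSF12A (Fn14), the receptor of TNFSF12, had the most counts of any member, 18.0% of the members' total (chromosome 16, 3018445 to 3022383, plus strand). It was at 178, 126 and 156 CPM in knockdown and 241, 226 and 287 CPM in control libraries. All knockdown libraries were below all controls, and knockdown replicate 2 was the lowest. The fall was 0.72 ± 0.14 on the log2 scale (adjusted p = 0.00587), and with knockdown replicate 2 alone the change was -1.01.

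TNFRSF11A (RANK), known for osteoclast formation, rose at a low level (chromosome 18, 62325287 to 62391292, plus strand). It held 87, 93 and 72 counts in knockdown and 49, 54 and 51 in control libraries, with no overlap. The difference was 0.63 ± 0.20 (adjusted p = 0.0448). The call is close to the threshold: it was lost in DESeq2 (adjusted p = 0.0987), with no filter on low counts (adjusted p = 0.0757), without control replicates 1, 2 or 3 (adjusted p = 0.136, 0.115 and 0.144) and without knockdown replicates 1 or 2 (adjusted p = 0.07 and 0.135). Its log2 fold change lay between 0.56 and 0.75 throughout. CD40, the receptor that B cells and macrophages use for T cell help and that many carcinomas carry, was at 46.9, 45.3 and 44.6 CPM in knockdown and 43.7, 45.3 and 49.0 CPM in control libraries. The CD40 groups overlapped and the difference was -0.01 ± 0.10 (adjusted p = 0.942).

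The other 12 receptors of this kind were untested. TNFRSF19 held 8, 16 and 21 counts in knockdown and 8, 6 and 3 in control libraries, the highest total among the untested members at 62. LTBR, the lymphotoxin beta receptor, held 2, 0 and 6 counts against 1, 0 and 1. TNFRSF13C held 3, 5 and 4 against 1, 11 and 1. TNFRSF13B and TNFRSF18 had 0 counts throughout, and TNFRSF1B, CD27, TNFRSF4, TNFRSF8, TNFRSF9, TNFRSF14 and TNFRSF17 held at most 4 in a library.

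All 7 TRAFs were tested, and 2 of them fell. TRAF1, the TRAF without a RING domain, forms complexes with TRAF2 and is itself a target of NF-kB (chromosome 9, 120902393 to 120929173, minus strand). It was at 8.85, 7.36 and 5.79 CPM in knockdown and 16.4, 16.9 and 16.8 CPM in control libraries. The controls lay close together and the highest knockdown library was far below them. TRAF1 fell by 1.19 ± 0.16 on the log2 scale, to 0.44 of the control level (adjusted p = 0.000987), and was at -1.19 with knockdown replicate 2 alone.

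TRAF4, first described in breast carcinoma and active in cell migration, was at 110, 77.7 and 92.8 CPM in knockdown and 122, 117 and 137 CPM in control libraries (chromosome 17, 28743984 to 28750958, plus strand). It fell by 0.42 ± 0.13 (adjusted p = 0.045). That call was lost without control replicates 1, 2 or 3 (adjusted p = 0.102, 0.0594 and 0.161) and without knockdown replicates 2 or 3 (adjusted p = 0.126 and 0.0684). With knockdown replicate 2 alone the change was -0.70.

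TRAF2 and TRAF3, which together with the BIRC2 and BIRC3 ligases hold down the kinase NIK, did not pass. TRAF2 was at 69.5, 46.2 and 49.0 CPM in knockdown and 69.7, 70.6 and 76.6 CPM in control libraries (-0.40 ± 0.15, adjusted p = 0.0808). Knockdown replicate 1 was at the level of the controls: without it TRAF2 passed at -0.60 ± 0.11 (adjusted p = 0.0083). TRAF2 also passed in DESeq2 (adjusted p = 0.0444) and with no filter on low counts (adjusted p = 0.0145). It did not pass in the other fits that left out 1 library (adjusted p up to 0.216), and was at -0.65 with knockdown replicate 2 alone. TRAF3 was at 45.9, 39.8 and 33.6 CPM against 52.8, 49.3 and 48.8 CPM (-0.34 ± 0.12, adjusted p = 0.0814), and passed without knockdown replicate 1 (-0.45 ± 0.12, adjusted p = 0.0323).

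TRAF5, which acts beside TRAF2 at several receptors, was above the controls in each knockdown library, at 32.3, 36.5 and 27.0 CPM against 24.5, 26.1 and 21.2 CPM (0.42 ± 0.14, adjusted p = 0.0559). It passed in DESeq2 (adjusted p = 0.0465), with no filter on low counts (adjusted p = 0.0257) and without knockdown replicate 3 (0.52 ± 0.12, adjusted p = 0.0229). TRAF5 did not pass in the other fits that left out 1 library (adjusted p up to 0.206), and was at 0.60 with knockdown replicate 2 alone. TRAF6, the adaptor shared with interleukin-1 and Toll-like receptors, was at 20.9, 23.2 and 20.0 CPM against 21.2, 20.3 and 18.2 CPM (0.11 ± 0.12, adjusted p = 0.571). TRAF7 was at 124, 112 and 101 CPM against 112, 109 and 114 CPM, a difference of 0.00 ± 0.10 (adjusted p = 0.983). The groups of TRAF6 and of TRAF7 overlapped.

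RefSeq gives TRAF1 starts at 3 places, and both of those nearest its upstream end are shown. The upstream window (chr9:120929122-120929421, minus strand) held none of the motifs searched, and the window of the next start (chr9:120926747-120927046, minus strand), which lies 2377 bases inside the gene as GENCODE draws it, has a C/EBP-ATF match at bases 253 to 260, just past the start. Capitals again mark a match:
TRAF1 upstream start: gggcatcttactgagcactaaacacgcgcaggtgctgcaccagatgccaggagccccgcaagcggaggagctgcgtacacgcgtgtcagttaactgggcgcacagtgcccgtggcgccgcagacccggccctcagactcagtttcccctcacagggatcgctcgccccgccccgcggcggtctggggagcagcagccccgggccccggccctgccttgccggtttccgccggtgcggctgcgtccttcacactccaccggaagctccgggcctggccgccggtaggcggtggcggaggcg
TRAF1 next start: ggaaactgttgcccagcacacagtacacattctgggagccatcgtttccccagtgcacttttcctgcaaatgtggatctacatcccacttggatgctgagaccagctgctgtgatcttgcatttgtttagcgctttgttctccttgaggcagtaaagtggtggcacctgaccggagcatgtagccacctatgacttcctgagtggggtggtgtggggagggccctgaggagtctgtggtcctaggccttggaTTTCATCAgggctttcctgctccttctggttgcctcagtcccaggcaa

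**Figure D2:**
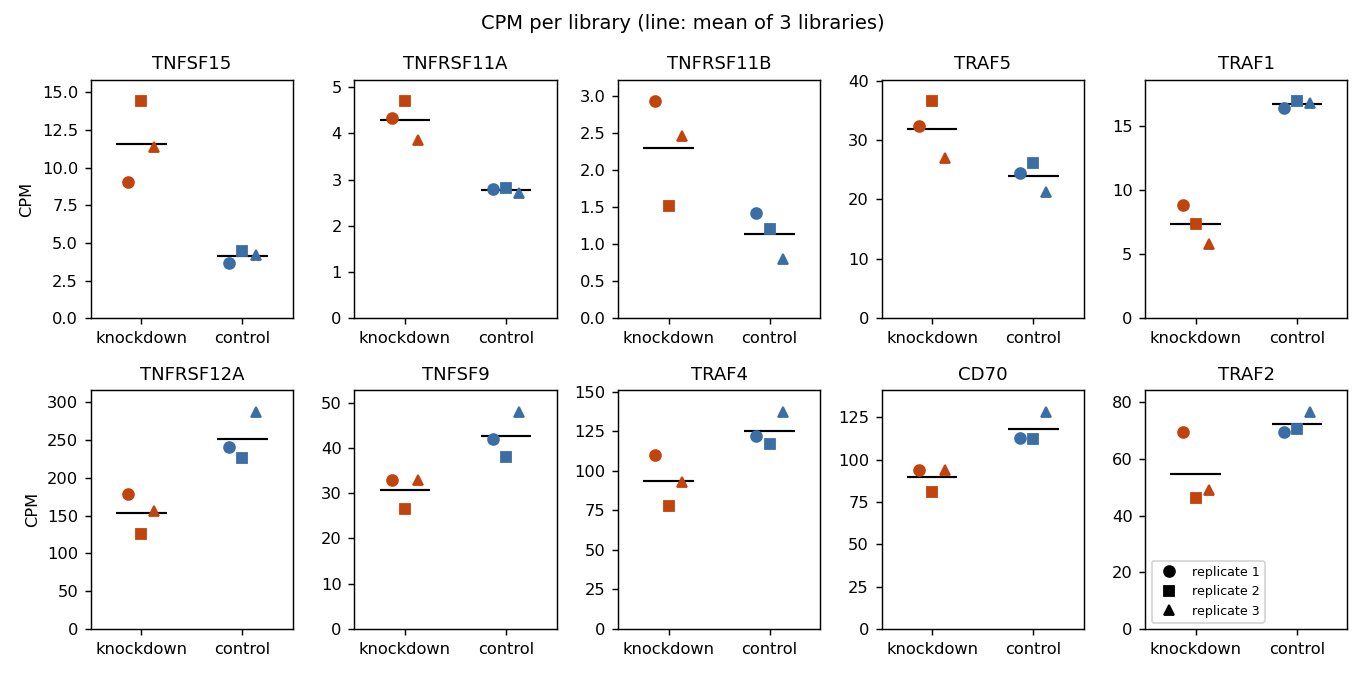
CPM per library (y axis, from 0) in knockdown and control libraries for the 7 called members and for TNFRSF11B, TRAF5 and TRAF2; symbols give the replicate number and lines the mean of 3 libraries. The TRAF1 controls sit between 16.4 and 16.9 CPM with the knockdown libraries at 5.79 to 8.85 CPM, and knockdown replicate 1 of TRAF2, at 69.5 CPM, lies beside the controls.

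Levels were compared between genes as CPM per kb of exonic length. On this scale TNFRSF12A was the most abundant tested member in both groups, at 82.9 CPM per kb in knockdown and 136 in control libraries, and CD70 came next at 58.4 and 76.8. TRAF7, TNFRSF1A, TNFRSF10B, TRAF4 and TNFSF9 formed a close group, between 18.5 and 25 CPM per kb in knockdown and between 24.5 and 27.3 in control libraries. TRAF1 was at 1.14 CPM per kb in knockdown and 2.59 in control libraries, and TNFSF15 at 1.47 and 0.523, so that TNFSF15 ranked 18 and TRAF1 ranked 19 in knockdown libraries, where TRAF1 ranked 17 and TNFSF15 ranked 20 in control libraries. TNFSF4 was the lowest, at 0.255 and 0.164. The members together summed to 1100, 958 and 981 CPM in knockdown and 1210, 1180 and 1300 CPM in control libraries, and the untested members held 0.208% of their counts.

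**Figure D3:**
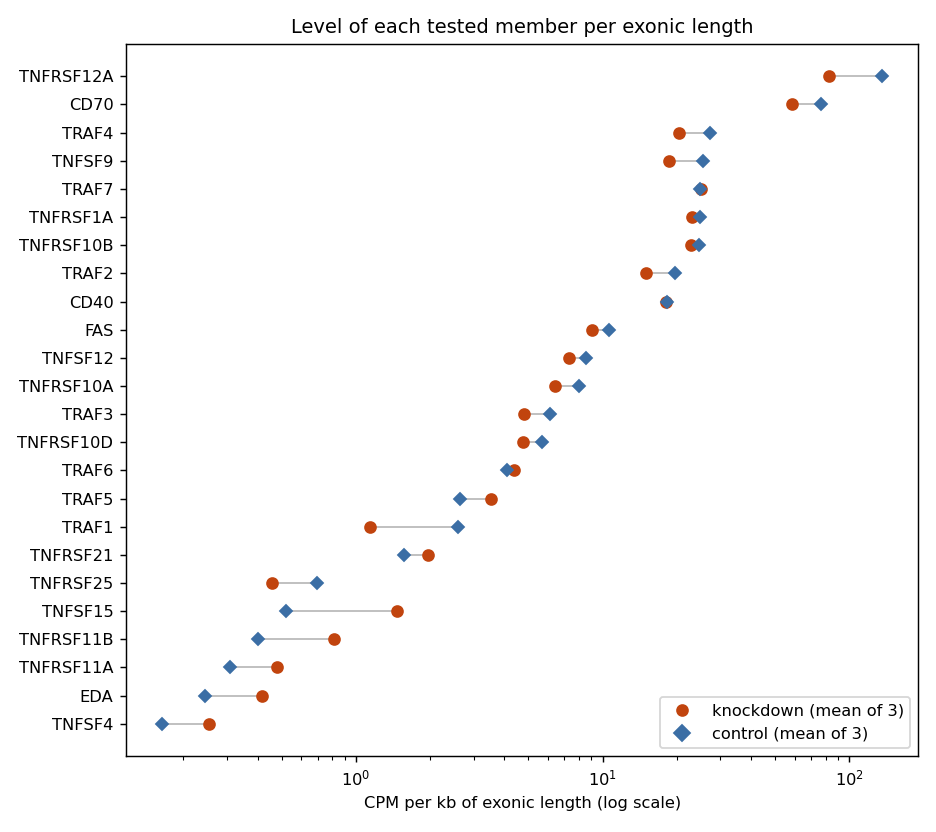
Mean level of each tested member in CPM per kb of exonic length (x axis, log scale) in knockdown (circles) and control (diamonds) libraries, genes ordered by control level. TNFRSF12A and CD70 lie above the rest, and TRAF1 and TNFSF15 have the widest gaps between groups.

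Ligands and receptors that bind each other rarely both had enough counts to be tested. Of 32 known ligand and receptor pairs, both genes were tested in 2, the receptor alone in 9, the ligand alone in 5 and neither in 16. In the pair of TNFSF15 and TNFRSF25 the ligand was at 1.49 and the receptor at -0.61 on the log2 scale, and the receptor did not pass the threshold. In the pair of TNFSF12 and TNFRSF12A the ligand was at -0.23, not past it, and the receptor at -0.72. CD70 and TNFSF9, both lower, had their receptors CD27 and TNFRSF9 at 2 and 8 counts in all 6 libraries together. TNFRSF11A was higher while its ligand TNFSF11 had 0 counts.

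Genes that act with the family were followed in 6 lists of 73 genes, of which 67 were tested. Of these 16 passed, 7 higher and 9 lower, or 23.9%, against 17.3% of all tested genes. Among all tested genes 9.71% were higher and 7.58% lower, and no test of the lists was made. Among 20 NF-kB and ubiquitin adaptors, 4 fell and 0 rose by edgeR, with a median of -0.12. DESeq2 also called TAB3, at 0.45 by edgeR, a gene named after its value was seen. RBCK1, a subunit of the linear ubiquitin ligase, was at 94.1 CPM in knockdown and 149 CPM in control libraries (-0.66 ± 0.12, adjusted p = 0.00382). BIRC3 and BIRC2, the cIAP ligases that TRAF2 recruits, averaged 86.7 and 127 CPM in knockdown against 131 and 169 CPM in controls (-0.59 ± 0.10 and -0.41 ± 0.10, adjusted p = 0.00272 and 0.016). MAP3K14, which encodes NIK, fell by 0.51 ± 0.15 (adjusted p = 0.0408). RBCK1 and BIRC3 passed in every leave-one-out fit; BIRC2 lost its call without control replicate 1 (adjusted p = 0.0835), and MAP3K14 without control replicates 1, 2 or 3 or knockdown replicates 2 or 3 (adjusted p = 0.0886, 0.0661, 0.12, 0.0801 and 0.0827).

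Of 18 tested genes of death signalling, 2 rose and 3 fell, with a median of -0.14. The executioner caspase gene CASP6 (0.49 ± 0.11, adjusted p = 0.0139) and the caspase inhibitor XIAP (0.47 ± 0.14, adjusted p = 0.0417) rose. MLKL, which carries out necroptosis (-0.48 ± 0.11, adjusted p = 0.0152), and CYCS, the cytochrome c of the apoptosome (-0.37 ± 0.12, adjusted p = 0.0465) were among those that fell. The necroptosis kinase RIPK3, chosen after its value was seen, held 0 counts in knockdown and 0, 1 and 0 in control libraries. CASP6 lost its call without control replicates 1 or 3 (adjusted p = 0.0547 and 0.0707) and MLKL without control replicates 1 or 2 (adjusted p = 0.0502 and 0.0554). XIAP lost it without control replicates 1, 2 or 3 or knockdown replicate 2 (adjusted p = 0.113, 0.0514, 0.155 and 0.137), at 0.29 without the last. CYCS lost it without any control or without knockdown replicates 1 or 2 (adjusted p = 0.126, 0.0789, 0.149, 0.0853 and 0.141).

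In the JNK and p38 cascade, 13 genes were tested, 2 rose and 1 fell, with a median of 0.17. MAP2K6, a kinase that activates p38, was at 5.40 CPM in knockdown and 1.42 CPM in control libraries, the largest change of the lists at 1.93 ± 0.29 (adjusted p = 0.00162). MAP3K1 rose by 0.63 ± 0.16 (adjusted p = 0.021), while MAP2K3, another activator of p38, fell by 0.48 ± 0.11 (adjusted p = 0.0152). MAP3K1 lost its call without control replicate 3 or knockdown replicate 2 (adjusted p = 0.0876 and 0.0518), and MAP2K3 without control replicates 1 or 3 (adjusted p = 0.053 and 0.0688). MAP2K6 passed in each alternative fit.

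Of 7 tested genes linked to the shedding of ligands or receptors, 0 passed by edgeR and 0 by DESeq2. At an unadjusted p under 0.05 edgeR counted ADAM10 and ADAM17 of this list. The protease ADAM10 was at 223 CPM in knockdown and 184 CPM in control libraries (0.28 ± 0.11, adjusted p = 0.087), and FRMD8, a partner of the iRhom proteins that guide ADAM17, was at -0.18 ± 0.11 (adjusted p = 0.266). Among 6 tested TNFAIP genes, most of them named for induction by TNF, TNFAIP6 (1.37 ± 0.25, adjusted p = 0.00499) and TNFAIP8 (0.55 ± 0.13, adjusted p = 0.0164) rose. TNFAIP8 lost its call without control replicates 1 or 3 (adjusted p = 0.0675 and 0.0655). The feedback inhibitor TNFAIP3 (A20) was at 3.97 CPM in knockdown and 5.87 CPM in control libraries, a value named after it was seen (-0.56 ± 0.19, adjusted p = 0.0613). Of the family members under other symbols, the receptor gene RELT fell by 0.70 ± 0.16 (adjusted p = 0.0137; 0.0598 without control replicate 1). NGFR, the neurotrophin receptor with a death domain, averaged 0.805 CPM in knockdown and 0.304 CPM in control libraries and rose by 1.38 ± 0.41 (adjusted p = 0.0393). That call was lost in DESeq2 (adjusted p = 0.143) and with no filter on low counts (adjusted p = 0.0723). It was also lost in 5 of the 6 leave-one-out fits, all but that without knockdown replicate 1 (adjusted p = 0.0777 to 0.154). NGFR was not tested under the stricter filter. CD40LG had 0 counts.

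**Figure D4:**
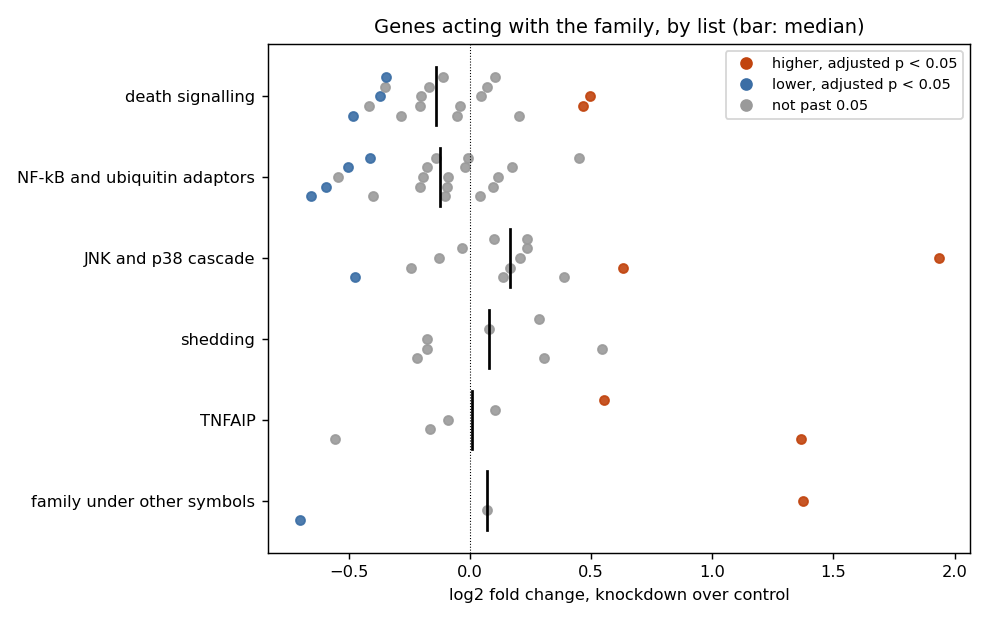
Log2 fold change (x axis, knockdown over control) of each tested gene of the 6 related lists, 1 point a gene, coloured by call, with a bar at each list's median. MAP2K6 at 1.93 stands furthest from 0, and the 4 called adaptors of NF-kB lie below 0.

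Some members share exonic sequence with other genes, and without a stated strand setting their reads could be assigned to either gene or to none. TNFRSF6B lies wholly within the RTEL1-TNFRSF6B readthrough, itself at 0 counts, and TNFSF12 and TNFSF13 share 29.4% and 55.5% of their exonic length with their readthrough. TRAF7 shares 21.2% with CASKIN1 on the opposite strand, which held 38, 35 and 27 counts in knockdown and 14, 14 and 9 in control libraries. FAS shares 8.9% with ACTA2, which averaged 1.84 CPM over all libraries. The called member TRAF4 shares 10.7% with AC010761.4 and 6.2% with AC010761.5, both antisense genes on the opposite strand. Neither was found in the count table under these symbols. TNFRSF25 shares 8.9% with ESPN, at 0 counts, and 2.4% with PLEKHG5 on the same strand, which averaged 8.41 CPM over all libraries. LTBR shares 6.7% with SCNN1A, which held 8, 7 and 8 counts in knockdown and 4, 2 and 3 in control libraries. Whether counting plays a part in the low value of LTBR was not tested.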

How the data were processed

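RNA sequencing was deposited as whole-number counts per gene symbol for 6 libraries; these deposited counts are whole and of unequal totals, so they were taken as not normalized. Per the submitters' processing notes, HISAT2 2.0.4 and GRCh38 were used; counting tool, annotation and strandedness: not given in the sources used here. Of 54261 genes, 25308 had a count.

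The test was edgeR's robust quasi-likelihood F test of the knockdown over the control libraries, run in R 4.3.3 with edgeR 4.0.16 and limma 3.58.1 after filterByExpr and TMM scaling. P-values were adjusted by the Benjamini-Hochberg method across the 13896 genes kept, and 0.05 was the threshold. An SE is the log2 fold change divided by the root of F. CPM use TMM-scaled sizes. Exonic lengths and coordinates are from GENCODE release 29 on GRCh38, and promoters from RefSeq. Alternatives were RLE scaling, DESeq2 1.42.0, 2 other filters, the replicate block, a threshold of 0.01, each library left out, and knockdown replicate 2 alone. Libraries of a group differed by more than sampling noise, so each counted as 1 sample. Chi-square over its degrees of freedom was 2.56 to 13.8 between control libraries and 16.9 to 31.6 between knockdown libraries.

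Members and lists were chosen with earlier results of these data known. Named were all called members, up to 4 abundant others per role, all whose groups did not overlap, and up to 4 called genes per list (otherwise the 2 most abundant); further names account for every member. The fits were tested on simulated data. Some items are not reported here.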

Additional observations from a re-analysis of the deposited data

How the results depend on the processing

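Counts below are for all genes, for members of the TNF superfamily and for the related lists, which stood at 2402, 7 and 16. RLE scaling (7 members), DESeq2 (8), no low-count filter (9) and the stricter filter (8) kept each of these counts within 1.5 times; 7, 6, 6 and 7 of the 7 members called were shared with them. At a threshold of 0.01 the counts were 749, 3 and 4. With knockdown replicate 2 alone against the controls, where a lone library is assumed to vary like the others, they were 4432, 11 and 22. Leaving out each library in turn gave 986 to 2645 genes, 3 to 11 members and 5 to 16 list genes, with fewer libraries in each such fit.

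With the replicate number as a block the counts were 5062, 14 and 26, and the 14 members, 5 higher and 9 lower, held all 7 called without it. The numbers share no stated origin, and same-numbered libraries deviated together in only 2 of 3 cases (r = -0.02, 0.297 and 0.353 for replicates 1 to 3), knockdown replicate 1 being closest to control replicate 3 (r = 0.048), so the block is not read as a pairing.

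The sign of TRAF7, whose log2 fold change was 0.004, turned under RLE scaling (-0.002), DESeq2 (-0.007), no filter (-0.001), the replicate block (0 to 3 decimals, listed as turned), without control replicate 2 (-0.022), without knockdown replicate 1 (-0.072) and with knockdown replicate 2 alone (-0.002), with a range of -0.072 to 0.072 over the fits that left out 1 library. That of CD40 turned without control replicate 3 (0.032; range -0.057 to 0.032). Of the other genes refitted, which were the members given with a fold change, apart from TRAF6, and the list genes chosen by the naming rule, 0 changed sign. TRAF6, TAB3, TNFAIP3, ADAM17 and the cell type markers were not refitted one by one. The 27 members that did not pass the filter on low counts have no test here.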
